A study of Bos taurus with 24 samples.

Results

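The response of subcutaneous fat to ad libitum feeding after restriction is described here for low gain cows, by cow and across all named genes. It was measured in 12 of the 24 samples of the series, one at each diet from each of 6 cows whose titles carry the label Low Gain. The cows were mature, crossbred, non-pregnant and of one age, and were chosen for the least weight gain while they were fed ad libitum, so that the gain label was itself read at the second diet. The tissue came from the fat pad over the lower back and rump. Feed supplied 120 kcal ME per kg metabolic weight during a restriction period of 112 days, when the biopsy was taken on day 105 from the left side, and it was offered without limit afterwards, when the biopsy was taken on day 49 from the right side. The titles number the biopsies of an animal, and number 2 was taken as ad libitum and number 1 as restriction in the order in which the protocol gives the diets. The cows are called L1 to L6 here. Another 6 cows, called H1 to H6, had the greatest gain and went through the same diets, and they serve for comparison. The paper reports that these cows also ate more while fed ad libitum, so gain and intake cannot be told apart between the groups.

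One Bovine 1.1ST array was used per sample. The values are log2 signals per transcript cluster, meaning the probes of a gene or predicted gene. Arrays of the same group correlated at 0.961 to 0.986 across clusters. Array medians were 7.83 to 7.88 at ad libitum feeding and 8.27 to 8.34 at restriction in low gain cows, with 7.84 to 7.94 at ad libitum feeding and 8.26 to 8.34 at restriction in high gain cows. Every array was therefore centred on its own median, and a level below means the log2 signal above that median. Diet, biopsy side, day and period cannot be told apart in this design, and the reported mean RNA integrity was lower at restriction. In pieces of tissue, fewer cells of a type and less RNA per cell cannot be told apart either.

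White fat stores fatty acids as triglyceride when energy is plentiful and releases them by lipolysis when it is not, and insulin shifts the balance toward storage. In cattle the tissue is also the main site where fatty acids are made, largely from acetate. Besides adipocytes it holds fibroblast-like progenitors, blood vessels, immune cells and nerve fibers in a collagen matrix, and it secretes hormones such as leptin. Genes of fatty acid synthesis, cholesterol synthesis and respiration are given only briefly here, and the weight lies on the rest.

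Of the 24997 clusters tested, 4645 were higher and 3285 were lower at ad libitum feeding than at restriction in low gain cows (limma with the cow as a block, Benjamini-Hochberg adjusted p under 0.05). These calls amount to 18.6% and 13.1% of all clusters. Counts within a list of genes below stand against these shares or, for lists of bright genes, against those given with brightness. All changes are ad libitum minus restriction. A fold over 2 was passed by 1142 of the higher and 262 of the lower clusters. In 8.99% of clusters all ad libitum levels lay above all restriction levels, and in 6.05% all lay below. Without cow L2 the lower clusters numbered 2091. Within a list, counts of 1 to 3 calls often lost or gained a call when 1 cow was left out, and for larger counts the cow is named where the count moved by more than 1.5 times.

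The size of the response varied between the cows. When the changes of a cow were regressed on the mean change of the other 5 cows over all clusters, the slope was 1.08 in L2, 0.97 in L6, 0.95 in L5, 0.83 in L3, 0.70 in L1 and 0.61 in L4. Cows L1 and L4 thus moved least.

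The calls depended on brightness. Among clusters past the 75th percentile of mean signal 34.8% were called higher and 7.84% lower. Several lists below lie mostly there. They include autophagy and lysosome (21 of 32 members, 34.4% of the list higher) and endoplasmic reticulum chaperones (15 of 24, 41.7%). Basement membrane and integrins (17 of 29, 41.4%) and hypoxia and vessel growth (19 of 27, 44.4%) are others. In 10 classes of equal size by mean signal, the median change was 0.45 in the brightest class and between -0.10 and 0.14 in the others. A cyclic loess normalization, which removes any trend with brightness, brought every class to a median between -0.04 and 0.02. With loess 3902 of the 24997 clusters were called higher and 3671 lower. Counts with loess below stand against these totals. On the deposited scale, with no centring, each change is 0.45 lower, and 89.6% of called clusters were lower as against 41.4% after centring. Values with loess are given below for named genes whose call they end and for the larger counts that they change by more than 1.5 times.

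**Figure D1:**
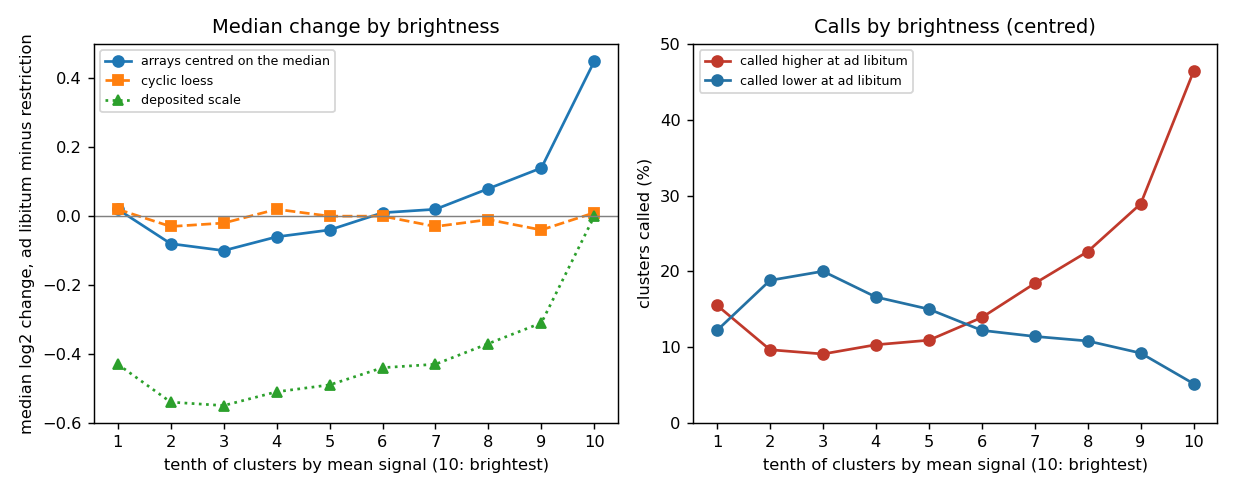
Low gain cows, clusters sorted into 10 classes of equal size by mean signal (x axis, 10 is the brightest). Left, the median log2 change, ad libitum minus restriction, with centred arrays, with cyclic loess and on the deposited scale. Right, the percentage of clusters called higher or lower with centred arrays. With centring the median reaches 0.45 in the brightest class, where 46.4% of clusters were called higher and 5.16% lower, and with loess it stays near 0.

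Outside the lipid synthesis and respiration lists, the largest rise among bright clusters that moved the same way in 6 of 6 cows was that of GSTT2, a glutathione transferase of the theta class. Its level was 7.40 to 10.01 (median 8.82) at ad libitum feeding and 1.93 to 5.84 (median 2.68) at restriction. No restriction sample reached an ad libitum sample, and the mean rise was 5.51 ± 0.62 log2 units (SE, adjusted p = 0.00055). MID1IP1, whose protein promotes polymerization of acetyl-CoA carboxylase, had levels of 8.82 to 10.55 (median 9.31) at ad libitum feeding and 3.57 to 7.41 (median 4.79) at restriction. It rose by 4.45 ± 0.60 (adjusted p = 0.0011), by 1.42 in L4 and by 6.20 in L2. TDH, threonine dehydrogenase, which opens a route of threonine breakdown in mitochondria, lay at 3.11 to 6.64 (median 4.95) at ad libitum feeding and at 0.26 to 1.34 (median 0.81) at restriction, a rise of 4.25 ± 0.41 (adjusted p = 0.00037).

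Regulators and stress proteins were also among the 14 largest rises. ATF5, a transcription factor of the mitochondrial stress response, had levels of 4.46 to 6.51 (median 5.77) at ad libitum feeding and 0.85 to 2.64 (median 1.49) at restriction, with no overlap. It rose by 4.03 ± 0.40 (adjusted p = 0.00039). CRYAB, a small heat shock protein, rose by 3.20 ± 0.29, with changes from 2.50 to 4.96. SELENOW, a small selenoprotein with a redox fold, rose by 3.35 ± 0.41. H19, an imprinted noncoding RNA beside IGF2, was at 3.36 to 7.12 (median 5.25) at ad libitum feeding and at 0.50 to 3.07 (median 1.55) at restriction, and rose by 3.67 ± 0.50 (adjusted p = 0.0011).

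Enzymes of energy and nitrogen handling formed another part of the list. GPI, the second enzyme of glycolysis, rose by 3.22 ± 0.30 with separate groups. GPT2, the mitochondrial alanine aminotransferase, rose by 3.12 ± 0.43, although its levels of 3.06 to 7.59 at ad libitum feeding overlapped those of 0.65 to 3.15 at restriction. CKB, a creatine kinase, rose by 3.49 ± 0.45, and its levels of 6.54 to 10.80 at ad libitum feeding overlapped those of 3.16 to 7.02 at restriction. The remaining rises fell on genes better known from epithelium, inner ear or bone. KRT19, an epithelial keratin, rose by 4.08 ± 0.64, CLDN10, a tight junction protein, by 3.60 ± 0.40, TECTB, a protein of the tectorial membrane, by 4.07 ± 0.58, and SOST, an inhibitor of Wnt signalling secreted by osteocytes, by 3.41 ± 0.49. Among 17 markers of skin epithelium 2 were called higher and 2 lower, with a median of -0.19, and KRT19 was one of the higher ones.

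The largest fall by the same criteria was that of SNCG, gamma-synuclein, an abundant protein of adipocytes and of sensory nerves. Its level was -1.06 to 5.47 (median 0.02) at ad libitum feeding and 3.17 to 7.15 (median 4.74) at restriction. The groups overlapped, and the mean fall was 3.95 ± 0.71 (adjusted p = 0.0038), with changes of -7.80 in L2 to -0.64 in L1. SNCG was the only one of 3 synucleins to be called. CHRNA3, a nicotinic acetylcholine receptor subunit, was at -0.84 to 5.02 (median 1.13) at ad libitum feeding and at 3.40 to 6.45 (median 5.95) at restriction. It fell by 3.73 ± 0.62, L1 again changing least at -0.60. Among the 15 nicotinic subunits measured 4 fell and 2 rose, of which 1 was left without L2, L3, L5 or L6. CHRNA1 fell with separate groups, its levels being -1.19 to -0.17 at ad libitum feeding and 0.83 to 2.65 at restriction. Its fall was 2.61 ± 0.30 (adjusted p = 0.00061). CHRNA7 rose by 0.57 ± 0.12, but by 0.12 on the deposited scale, where it was not called.

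FFAR4, a receptor for long chain fatty acids, was at -0.20 to 2.12 (median 0.66) at ad libitum feeding and at 1.95 to 2.95 (median 2.80) at restriction. Only L1 at ad libitum feeding reached the restriction range, and the fall was 1.88 ± 0.30 (adjusted p = 0.0022). ANGPTL4, a secreted inhibitor of lipoprotein lipase, lay at 1.52 to 3.44 (median 2.54) at ad libitum feeding and at 3.56 to 4.97 (median 4.40) at restriction, with no overlap, and fell by 1.87 ± 0.25 (adjusted p = 0.001). PTGER3, a prostaglandin E2 receptor that restrains cyclic AMP, fell by 1.83 ± 0.35, with changes from -3.22 to -0.05. GAB1, an adaptor of receptor tyrosine kinases, fell by 2.39 ± 0.35 with separate groups.

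Others of the falls have different roles. FHL1, a LIM domain protein, was at 4.90 to 6.62 (median 5.41) at ad libitum feeding and at 6.79 to 9.38 (median 8.45) at restriction, and fell by 2.64 ± 0.35 (adjusted p = 0.001). SFXN1, the mitochondrial serine transporter, fell by 2.25 ± 0.21 with separate groups. NUDT4, a hydrolase of inositol pyrophosphates, fell by 2.31 ± 0.33 and QPCT, glutaminyl-peptide cyclotransferase, by 2.06 ± 0.42. The microRNA cluster MIR2460 fell by 2.88 ± 0.53, its levels ranging from 0.61 to 4.47 at ad libitum feeding and from 1.33 to 6.89 at restriction. SPP1, osteopontin, fell by 2.12 ± 0.60 (adjusted p = 0.026), its levels overlapping widely at -0.36 to 3.95 at ad libitum feeding and at -0.20 to 8.33 at restriction. This call rested on single cows: the adjusted p was 0.064 without L3, 0.069 without L5 and 0.064 without L6, and 0.23 without the cow as a block. IER3, an immediate early gene, fell by 1.90 ± 0.50 (adjusted p = 0.019), with 0.059 without L2 and 0.055 without L5.

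**Figure D2:**
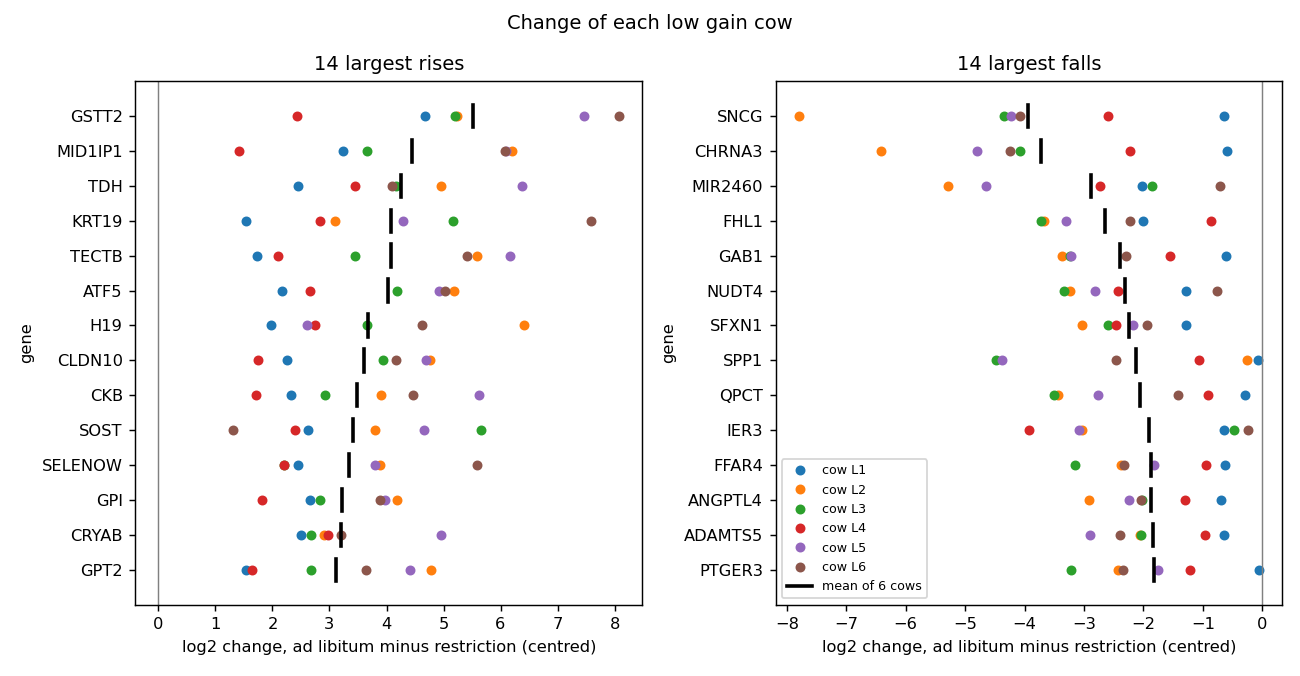
Log2 change, ad libitum minus restriction on centred arrays (x axis), of each low gain cow (colored points) for the 14 largest rises and 14 largest falls by gene (y axis). The black bar is the mean of 6 cows. The genes were chosen for the same sign in 6 of 6 cows, so all points lie on one side of 0. The spread is wide, GSTT2 ranging from 2.43 to 8.08 and SNCG from -7.80 to -0.64.

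The 10 smallest p-values outside the lipid synthesis and respiration lists came next. SLC2A4, the insulin-responsive glucose transporter, was at 2.44 to 3.97 (median 2.95) at ad libitum feeding and at -0.30 to 0.76 (median 0.32) at restriction. It rose by 2.87 ± 0.20 (adjusted p = 0.00014), between 2.16 and 3.55 in each cow. DBI, the acyl-CoA binding protein, was at 7.10 to 7.83 at ad libitum feeding and at 3.94 to 4.87 at restriction, and rose by 2.99 ± 0.18 (adjusted p = 0.00011). UBE2V1, a partner of ubiquitin conjugation, rose by 2.21 ± 0.13, PSMB5, a catalytic proteasome subunit, by 2.21 ± 0.13, and RNF125, a ubiquitin ligase, by 2.64 ± 0.16. S100A10, the annexin A2 partner, rose by 2.18 ± 0.13, AGFG1, a protein of clathrin-mediated traffic, by 2.12 ± 0.15, KRCC1 by 2.06 ± 0.14 and CISD1, an iron-sulfur protein of the outer mitochondrial membrane, by 1.69 ± 0.12. The cluster annotated to the olfactory receptor OR1J6 was the only fall in this group, of 2.32, at -2.53 to -1.87 at ad libitum feeding and at -0.03 to 0.25 at restriction.

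Of the lipid and respiration lists, 22 of 24 genes of fatty acid synthesis, 18 of 18 of cholesterol synthesis, 70 of 78 of oxidative phosphorylation and 16 of 19 of the TCA cycle were called higher and none was called lower. Examples are ACLY, the source of cytosolic acetyl-CoA, with a rise of 6.86 ± 0.51, INSIG1, the sterol-sensing anchor of SREBP cleavage, with 4.77 ± 0.22, and IDI1, an isomerase of the sterol pathway, with 3.76 ± 0.22. SDHD, a subunit of complex II, rose by 2.37 ± 0.18 and MDH2, malate dehydrogenase, by 2.29 ± 0.28. Of 18 genes of fatty acid oxidation 11 were higher, among them ETFA, an electron carrier, with 3.23 ± 0.27.

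Genes of glycolysis and of branched-chain amino acid breakdown were called mainly higher. In glycolysis 14 of 20 genes were higher and 1 lower, with a median of 1.48. ALDOA, aldolase, was at 11.29 to 11.81 at ad libitum feeding and at 8.81 to 9.77 at restriction, a rise of 2.19 ± 0.15 (adjusted p = 0.00014). LDHB, a lactate dehydrogenase subunit, rose by 1.96 ± 0.22. In the breakdown of branched-chain amino acids 18 of 23 genes were higher and none was lower, with a median of 1.46 (0.94 with loess). BCKDHB, a subunit of the committed dehydrogenase, was at 3.19 to 4.37 at ad libitum feeding and at 1.84 to 2.70 at restriction, and rose by 1.70 ± 0.18 (adjusted p = 0.00045). DBT, another subunit of that complex, rose by 1.98 ± 0.33, IVD, isovaleryl-CoA dehydrogenase, by 1.94 ± 0.24, MCCC1, of leucine breakdown, by 1.49 ± 0.16 and MMUT, methylmalonyl-CoA mutase, by 1.88 ± 0.17.

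Insulin signalling was mixed: 6 of 17 genes were higher and 2 lower, 1 without L5, with a median of -0.14. AKT2, the kinase that carries the insulin signal to glucose transport, was at 5.42 to 6.40 at ad libitum feeding and at 3.94 to 4.78 at restriction, and rose by 1.61 ± 0.18 (adjusted p = 0.00058). GSK3B, which AKT inhibits, rose by 1.21 ± 0.18. GRB14, an inhibitor of the insulin receptor, fell by 0.83 ± 0.13. Its groups were separate, at -2.62 to -2.16 at ad libitum feeding and at -1.90 to -1.29 at restriction.

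Genes of fasting and of lipolysis divided. Among 21 genes of the fasting response 7 were lower and 4 higher, the higher ones numbering 2 without L1. CPT1A, the entry step of fatty acids into mitochondria, lay at 0.86 to 1.62 (median 1.48) at ad libitum feeding and at 2.66 to 3.60 (median 2.89) at restriction. It fell by 1.60 ± 0.18 (adjusted p = 0.00055). PDK4, which blocks pyruvate oxidation, was at 5.01 to 8.27 (median 7.34) at ad libitum feeding and at 7.76 to 9.66 (median 8.87) at restriction, and fell by 1.92 ± 0.45 (adjusted p = 0.011) in 5 of 6 cows. PPARA, the receptor that drives fasting genes in liver, rose by 0.92 ± 0.13, and PLIN5, a lipid droplet protein, by 1.18 ± 0.13.

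Among the 19 lipolysis genes 6 were higher and 6 lower, and the median was 0.04, -0.41 on the deposited scale and -0.36 with loess. PNPLA2, the triglyceride lipase, was at 9.03 to 10.19 (median 9.71) at ad libitum feeding and at 8.22 to 9.0 (median 8.24) at restriction, and rose by 1.28 ± 0.16 (adjusted p = 0.00087). MGLL, monoglyceride lipase, rose by 1.27 ± 0.20. AQP7, a glycerol channel, rose by 1.13 ± 0.17, but by 0.45 with loess, where it was not called (adjusted p = 0.068). NPR3, the clearance receptor of natriuretic peptides, lay at -0.66 to 0.12 at ad libitum feeding and at 0.65 to 1.20 at restriction, and fell by 1.21 ± 0.14. LIPE, hormone-sensitive lipase, changed by -0.58 ± 0.22 and did not pass (adjusted p = 0.073), while it was called lower with loess (-1.1, adjusted p = 0.0056). PLIN1, the main droplet coat protein of adipocytes, changed by -0.05 ± 0.27.

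Of 39 genes of glutathione and peroxide handling 28 were higher and 1 lower, with a median of 0.78, and 23 were higher with loess. GPX4, which reduces lipid peroxides, was at 6.89 to 8.03 (median 7.49) at ad libitum feeding and at 4.02 to 6.28 (median 4.27) at restriction, and rose by 2.79 ± 0.28 (adjusted p = 0.0004). PRDX1, a peroxiredoxin, was at 7.67 to 8.28 at ad libitum feeding and at 5.13 to 6.60 at restriction, and rose by 2.06 ± 0.17 (adjusted p = 0.00021). PRDX2, of the same family, rose by 1.98 ± 0.22, GSTM3, a glutathione transferase, by 2.38 ± 0.21 and GSS, glutathione synthetase, by 2.01 ± 0.26.

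Chaperones rose less uniformly. In the heat shock list 10 of 19 were higher, 6 with loess, and 2 were lower, 1 without L2, L3 or L5. HSPA9, the mitochondrial HSP70, was at 8.90 to 9.55 at ad libitum feeding and at 7.42 to 7.99 at restriction, a rise of 1.55 ± 0.15. HSPE1, the mitochondrial co-chaperonin, rose by 1.89 ± 0.26. The cluster of its partner HSPD1 fell by 1.06 ± 0.13, at -1.4 to -0.72 at ad libitum feeding and at -0.21 to 0.23 at restriction, below or near the array median throughout. Chaperones and folding enzymes of the endoplasmic reticulum counted 10 higher of 24 and none lower, with a median of 0.31 that was -0.14 on the deposited scale. P4HB, protein disulfide isomerase, rose by 1.29 ± 0.19. Among 24 genes of the ATF4 amino acid response 10 were higher and 2 lower, with a median of 0.32 (-0.13 on the deposited scale). ATF4 itself was at 6.51 to 7.57 at ad libitum feeding and at 5.13 to 5.83 at restriction, a rise of 1.49 ± 0.15 (adjusted p = 0.00043). ASNS, asparagine synthetase, rose by 1.30 ± 0.19 and MTHFD1, of folate metabolism, by 1.42 ± 0.18.

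Among genes of protein synthesis and turnover the share called higher differed between the lists. Of 52 proteins of the mitochondrial ribosome 34 were higher and none lower, with a median of 0.64, for example MRPL14 with 1.44 ± 0.14. Of 33 proteasome subunits 22 were higher and none lower, with a median of 0.61. PSMA6, an alpha subunit, was at 4.64 to 5.42 at ad libitum feeding and at 3.32 to 4.10 at restriction, a rise of 1.34 ± 0.11 (adjusted p = 0.00021). Of 44 cytosolic ribosomal proteins 25 were higher and 2 lower, but 12 were higher and 1 lower with loess, 38 of them being past the 75th percentile of signal. Probes of this family can share sequence with pseudogenes. RPL10 rose by 1.95 ± 0.14 (1.20 with loess) and RPS16 by 1.84 ± 0.19. In autophagy and lysosome 11 of 32 were higher, 6 with loess and 7 without L1 or L2, and 1 was lower, 3 with loess. The share of 34.4% higher is near the 34.8% of all clusters past the 75th percentile of signal. The median of 0.12 was -0.34 on the deposited scale. SQSTM1, an autophagy receptor that also acts on the NRF2 pathway, was at 7.38 to 8.32 at ad libitum feeding and at 5.36 to 6.71 at restriction, a rise of 1.97 ± 0.16. LAMP2, a lysosomal membrane protein, rose by 1.49 ± 0.15.

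**Figure D3:**
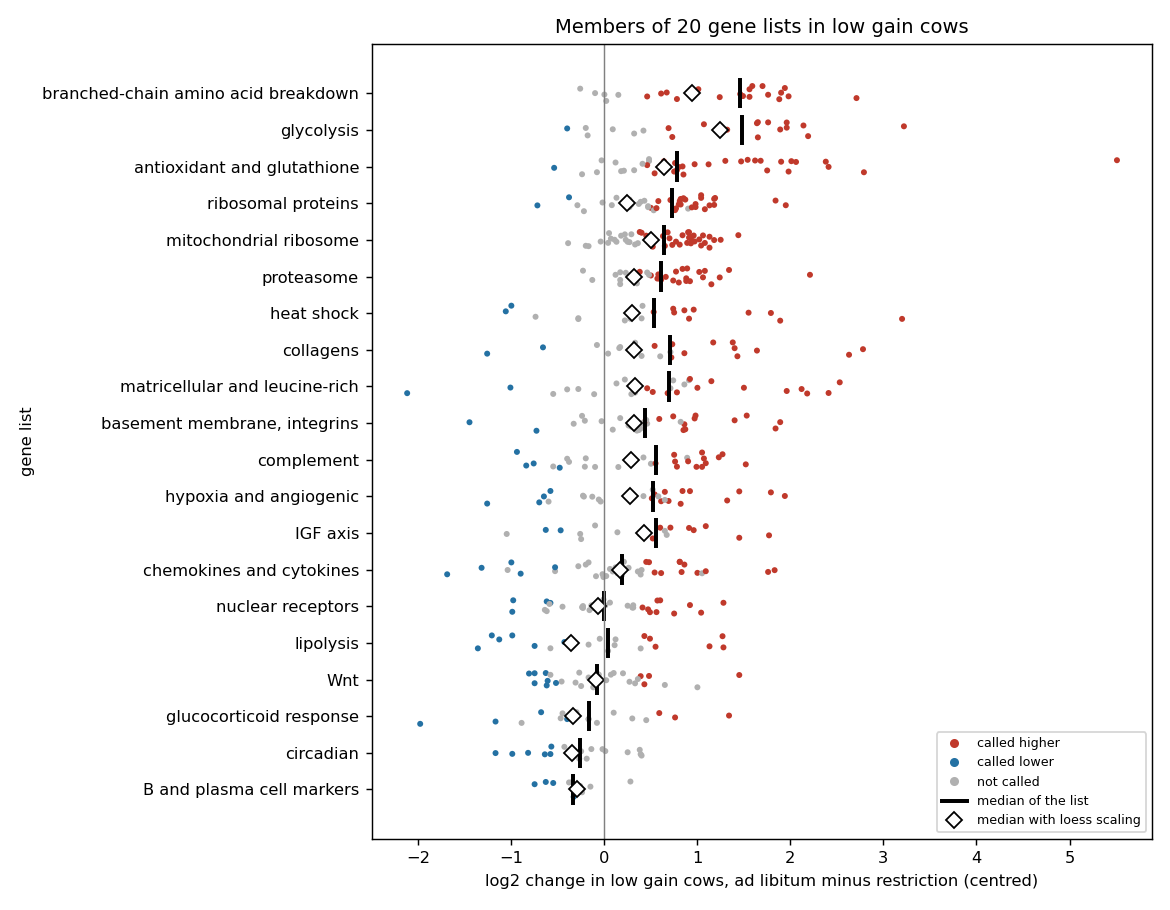
Log2 change, ad libitum minus restriction in low gain cows on centred arrays (x axis), of each member of 20 gene lists (y axis). Red points were called higher, blue points lower and grey points neither, black bars are list medians and diamonds the medians with loess. Branched-chain amino acid breakdown (1.46) and glycolysis (1.48) have the highest medians drawn, while the circadian (-0.26) and B cell (-0.34) medians lie below 0.

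Genes of the matrix changed among both the fibrillar and the basement membrane members, with wide spread between cows. Of 21 collagens 11 were higher and 2 lower, with a median of 0.71, and 7 were higher with loess. COL3A1, the collagen of young fibrillar matrix, was at 8.72 to 10.80 (median 9.12) at ad libitum feeding and at 7.08 to 8.73 (median 7.56) at restriction, and rose by 1.64 ± 0.17 (adjusted p = 0.00043). The chains of type I collagen rose more on average but less evenly. COL1A2 rose by 2.78 ± 0.49 (adjusted p = 0.0033) and COL1A1 by 2.63 ± 0.57 (adjusted p = 0.0081), each in 5 of 6 cows, with changes of -0.14 to 4.27 and of -0.54 to 4.44. Of the type IV chains of the basement membrane, COL4A1 and COL4A2 rose with smaller SE and COL4A5 was also higher. COL4A3 and COL4A4 were not called. COL4A1 was at 7.95 to 8.80 at ad libitum feeding and at 6.87 to 7.25 at restriction, a rise of 1.38 ± 0.13 (adjusted p = 0.0003), and COL4A2 rose by 1.17 ± 0.12.

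Proteoglycans and matricellular proteins counted 13 higher of 28 and 2 lower, with a median of 0.70, and 7 higher with loess. BGN, biglycan, was at 5.31 to 7.70 (median 7.53) at ad libitum feeding and at 3.77 to 5.71 (median 4.24) at restriction. It rose by 2.41 ± 0.32 in all cows (adjusted p = 0.001). ASPN, asporin, rose by 2.12 ± 0.35 and FBLN1, fibulin-1, by 1.5 ± 0.27. OGN, osteoglycin, rose by 2.53 ± 0.61 and POSTN, periostin, by 1.96 ± 0.50, with adjusted p of 0.014 for OGN and 0.018 for POSTN, and POSTN was at 0.051 without the cow as a block. DCN, decorin, rose by 1.15 ± 0.23 but by 0.36 with loess, where it did not pass (adjusted p = 0.26).

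Among 29 basement membrane and integrin genes 12 were higher and 2 lower, with a median of 0.44 that was -0.01 on the deposited scale. Of the laminin chains LAMA2 and LAMA5 were higher, while LAMA3, LAMA4, LAMB1, LAMB2 and LAMC1 were not called. ITGA1, a collagen-binding integrin chain, was at 6.06 to 7.20 at ad libitum feeding and at 4.59 to 5.25 at restriction, and rose by 1.84 ± 0.15 (adjusted p = 0.0002). ITGA6, a laminin-binding chain, rose by 1.53 ± 0.13 and HSPG2, perlecan, by 1.4 ± 0.14. LOX, which crosslinks collagen, went the other way. It was at 6.06 to 8.28 (median 6.68) at ad libitum feeding and at 6.54 to 9.24 (median 8.65) at restriction, and fell by 1.45 ± 0.32 in 6 of 6 cows (adjusted p = 0.0088). Among 35 proteases and inhibitors 9 were higher and 5 lower, 2 without L5 and 3 without L2, with a median of 0.12 that was -0.33 on the deposited scale. ADAMTS5, an aggrecan-cleaving protease, fell by 1.84 ± 0.28. ADAMTS16, of the same family, rose by 2.52 ± 0.37 with separate groups and CTSB, cathepsin B, by 1.26 ± 0.11.

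Markers of progenitors and fibroblasts were also called mainly higher. Of 17 such markers 11 were higher and none lower, with a median of 1.15, and the mean level over the list was 5.60 to 7.01 at ad libitum feeding and 4.36 to 5.43 at restriction. Of these markers COL1A1, COL3A1, DCN, LUM, FBN1 and MFAP5 are matrix genes themselves, and ENG is also counted as an endothelial marker. PDGFRA, PDGFRB, DPP4, S100A4, FBN1 and MFAP5 were not called. PI16, of early progenitors, rose by 1.23 ± 0.20, CD34 by 1.33 ± 0.22 and FAP, of activated fibroblasts, by 1.77 ± 0.42. LUM, lumican, rose by 2.18 ± 0.50. The part of fibroblast number in the matrix values was not tested.

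Of the growth factor genes, 8 of 18 in the IGF axis were higher, 5 without L2 and 5 with loess, and 2 were lower, none without L2, L3 or L5. IGF2 was at 6.68 to 7.94 (median 7.43) at ad libitum feeding and at 5.55 to 6.91 (median 6.31) at restriction, and rose by 1.09 ± 0.14 (adjusted p = 0.00097). IGFBP6, which prefers IGF2, rose by 1.45 ± 0.29. IGFBP7, at 11.87 to 11.93 at ad libitum feeding and at 9.5 to 10.30 at restriction, rose by 1.77 ± 0.13, and the first range lies close to the end of the array scale. Of 31 genes of TGF-beta and BMP signalling 3 were higher and 1 lower, 3 with loess. The lower one was BMP4, which commits progenitors to the fat lineage, at -1.30 to 0.05 (median -0.93) at ad libitum feeding and at -0.37 to 1.36 (median 1.01) at restriction. It fell by 1.63 ± 0.17 in all cows (adjusted p = 0.00046). In Wnt signalling 7 of 31 were lower and 4 higher, 1 without L3 or L4 and 2 without any other cow or with loess. WNT5A, a non-canonical ligand, fell by 0.75 ± 0.17, FZD1, a receptor, by 0.63 ± 0.12 and RSPO1, an enhancer of the pathway, by 0.62 ± 0.12.

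Secreted factors of fat divided. Of 20 adipokine genes 7 were higher and 3 lower, and the median of 0.26 was -0.19 on the deposited scale. LEP, leptin, was at 4.74 to 6.25 (median 5.79) at ad libitum feeding and at 1.95 to 5.28 (median 4.34) at restriction, and rose by 1.48 ± 0.29 in 6 of 6 cows (adjusted p = 0.0058). RARRES2, chemerin, lay at 0.52 to 1.25 at ad libitum feeding and at 1.58 to 2.76 at restriction, and fell by 1.26 ± 0.14 (adjusted p = 0.00053). RBP4, the retinol carrier, fell by 1.22 ± 0.28 in 5 of 6 cows. ANGPTL2 rose by 1.22 ± 0.18. ADIPOQ, adiponectin, rose by 0.51 ± 0.13 but was at -0.29 with loess, where it was not called.

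Factors of adipocyte differentiation were mostly not called, 3 of 20 being higher and 2 lower, 1 without L2, L3, L5 or L6. PPARG, the main adipogenic receptor, was at 6.41 to 7.14 (median 6.93) at ad libitum feeding and at 5.10 to 6.11 (median 5.60) at restriction, and rose by 1.28 ± 0.21 (adjusted p = 0.0022). NNAT, neuronatin, an imprinted gene induced during adipogenesis in mouse cells, lay at 6.24 to 9.11 (median 8.41) at ad libitum feeding and at 9.79 to 11.66 (median 10.93) at restriction. The groups did not overlap, and it fell by 2.71 ± 0.28 (adjusted p = 0.00043). Among 32 nuclear receptors 10 were higher, 5 without L5 and 6 without L1 or L3, and 4 lower. ESRRA, a regulator of mitochondrial genes, rose by 1.04 ± 0.17 and RXRG, a retinoid X receptor, by 0.75 ± 0.13, although RXRG was at 0.30 on the deposited scale and not called there.

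Of 19 genes of thermogenesis and creatine cycling 9 were higher, 4 without L3 and 5 without L5 or L6, and 2 lower, with a median of 0.38 that was -0.07 on the deposited scale. CIDEA, a droplet protein that is also a marker of brown fat, was at 5.29 to 5.78 at ad libitum feeding and at 1.90 to 3.79 at restriction, and rose by 2.70 ± 0.25 (adjusted p = 0.00029). UCP1, the uncoupling protein of brown fat, was called with a rise of 0.60 ± 0.11, at levels of -2.51 to -2.13 at ad libitum feeding and -2.99 to -2.76 at restriction, all far below the array median, and was not called on the deposited scale. The steps of creatine synthesis moved apart. GATM, the first enzyme, lay at 0.13 to 0.70 at ad libitum feeding and at 1.24 to 3.02 at restriction, and fell by 1.5 ± 0.19 (adjusted p = 0.0009), whereas GAMT, the second, rose by 0.78 ± 0.13, which was 0.32 on the deposited scale and not called there (adjusted p = 0.055).

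**Figure D4:**
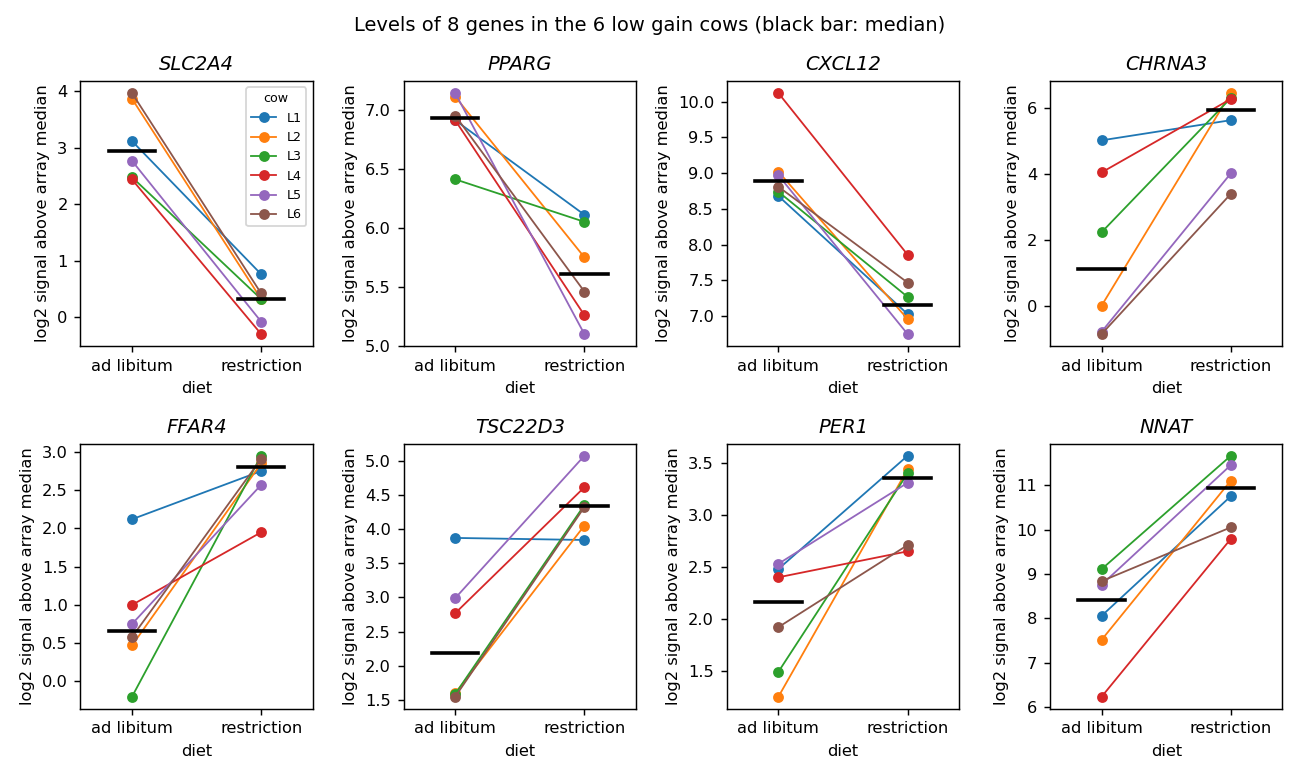
Level (log2 signal above the array median, y axis) of 8 genes at ad libitum feeding (left) and restriction (right) in each low gain cow, lines joining the samples of a cow and black bars marking medians. SLC2A4, PPARG and CXCL12 are higher at ad libitum feeding in every cow. CHRNA3, FFAR4, PER1 and NNAT are lower in every cow and TSC22D3 in 5 of 6, with L1 nearly level in CHRNA3 and TSC22D3. For CHRNA3 and FFAR4 the same sign in every cow was part of the rule that named them.

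Clock genes were called in 1 direction only. Of 18 circadian genes 6 were lower, 3 without L2 or L5, and none was higher, with a median of -0.26. PER1, a repressor of the clock that glucocorticoids also induce, was at 1.25 to 2.53 (median 2.16) at ad libitum feeding and at 2.65 to 3.57 (median 3.35) at restriction, and fell by 1.17 ± 0.24 (adjusted p = 0.007). NR1D2, a clock repressor, fell by 0.99 ± 0.21 in 5 of 6 cows. CRY2, another repressor, fell by 0.58 ± 0.15, at an adjusted p of 0.066 without the cow as a block. Also called lower were ARNTL and NPAS2, activators of the clock, and HLF, so the calls were not confined to repressors. Biopsies were taken over several morning hours and the hour of each cow is not given in the sources used here.

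Among 17 glucocorticoid response genes 4 were lower, 6 without L4 and 2 without L2, L3, L5 or L6, and 3 higher. TSC22D3, the glucocorticoid-induced leucine zipper, was at 1.55 to 3.87 (median 2.18) at ad libitum feeding and at 3.84 to 5.07 (median 4.34) at restriction. It fell by 1.98 ± 0.33 (adjusted p = 0.0026), with a change of 0.03 in L1. GLUL, glutamine synthetase, rose by 1.34 ± 0.11, between 1.21 and 1.72 in each cow. The other members called higher were FKBP5 and FKBP4. Immediate early genes were mostly not called, 5 of 28 being higher and 2 lower, with 7 lower with loess, 6 without L4 and 1 without L2 or L5. KLF2, a flow-responsive factor of endothelium, rose by 0.98 ± 0.14 with separate groups, and NR4A3 fell by 0.98 ± 0.23.

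Cell cycle genes were higher in 8 of 31, 5 without L2 or L6, and lower in 1, and the median of 0.19 was -0.26 on the deposited scale. CCND1, cyclin D1, was at 2.21 to 3.75 (median 3.22) at ad libitum feeding and at 0.37 to 1.31 (median 0.82) at restriction, and rose by 2.31 ± 0.24 (adjusted p = 0.00043). MCM7, of the replication helicase, rose by 1.37 ± 0.16 and PCNA, the replication clamp, by 0.81 ± 0.18, though PCNA was at 0.36 on the deposited scale and not called there. BIRC5, survivin, which peaks at mitosis, fell by 0.59 ± 0.10. MKI67, a marker of dividing cells, changed by -0.38 ± 0.23 and did not pass (adjusted p = 0.25).

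Complement was the immune list with the largest share of calls. Of 27 genes 13 were higher, 8 with loess, and 4 were lower, with a median of 0.55. C1QA, of the first classical component, was at 0.29 to 2.56 (median 1.39) at ad libitum feeding and at -0.33 to 0.80 (median 0.21) at restriction, and rose by 1.27 ± 0.19 (adjusted p = 0.0016). C7, of the terminal complex, rose by 1.52 ± 0.29 and C4A by 1.23 ± 0.28. CLU, clusterin, rose by 1.09 ± 0.11, from near the end of the scale, and by 0.28 with loess, where it did not pass (adjusted p = 0.073). The cluster of C8B, a component made in liver, lay far below the array median and fell by 0.94 ± 0.12.

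Of 37 chemokine and cytokine genes 12 were higher, 7 without L2, and 5 lower, and the median of 0.19 was -0.27 on the deposited scale. CXCL12, a chemokine of stromal cells, was at 8.68 to 10.12 (median 8.89) at ad libitum feeding and at 6.75 to 7.86 (median 7.15) at restriction, and rose by 1.83 ± 0.15 (adjusted p = 0.00022). CCL2, which draws monocytes, rose by 1.76 ± 0.47 (adjusted p = 0.021), in 5 of 6 cows and over the wide range of -0.34 to 4.24, and did not pass without L6 (adjusted p = 0.058). TNF was called with a rise of 0.81 ± 0.12 at levels of -2.10 to -1.58 at ad libitum feeding and -2.92 to -2.36 at restriction, below the array median at both diets. IL6R, the interleukin-6 receptor, lay at 0.35 to 0.97 at ad libitum feeding and at 1.17 to 3.22 at restriction, and fell by 1.69 ± 0.25 (adjusted p = 0.0015). CSF1, the macrophage growth factor, fell by 1.32 ± 0.22 in 6 of 6 cows.

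Of 34 interferon and antigen genes 9 were higher and 1 lower, with a median of 0.19 that was -0.26 on the deposited scale. BOLA-DRA, the class II alpha chain, was at 7.67 to 9.56 (median 8.96) at ad libitum feeding and at 6.59 to 7.47 (median 7.05) at restriction, and rose by 1.74 ± 0.23 (adjusted p = 0.00097). CD74, the invariant chain, rose by 1.08 ± 0.18 and CIITA, the class II transactivator, by 0.78 ± 0.13. BOLA-DQA1, of a family of near-identical genes, rose by 1.45 ± 0.29 with the cow as a block, but its adjusted p was 0.28 without it. Cow L3 had levels of 0.94 at ad libitum feeding and 1.1 at restriction, whereas the other cows had at least 5.21 at ad libitum feeding and 4.17 at restriction. The class II genes BOLA-DMA, BOLA-DMB, BOLA-DOA, BOLA-DQA2 and BOLA-DQB were not called. USP18, an interferon-stimulated protease, was the one that fell, by 0.96 ± 0.18.

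Calls among markers of immune cells differed between the lists. Of 15 macrophage and monocyte markers 3 were higher and none lower, with a median of 0.01, and C1QA was among the 3. Of 16 T and NK cell markers 3 were lower, 1 with loess or without L2 or L4 and none without L6, of 10 B and plasma cell markers 4 were lower, and of 10 neutrophil markers 1 was lower, while none was higher. BANK1, a B cell adaptor, fell by 0.75 ± 0.14, CD79B, of the B cell receptor, by 0.63 ± 0.11 and CSF3R, of neutrophils, by 0.97 ± 0.20. None of the markers of these last lists was past the 75th percentile of signal. In the dimmer classes 1 to 5 by mean signal 12.2% to 20.0% of clusters were called lower. The T and NK cell share of 18.8% lies within that range, and the B and plasma cell share of 40.0% lies above it. No mast cell or erythroid marker was called.

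Markers of adipocytes were higher in 12 of 16 and lower in 1, with a median of 0.66, but with loess 5 were higher and 3 lower, with a median of 0.25. LPL, lipoprotein lipase, was at 11.76 to 11.84 at ad libitum feeding and at 9.66 to 10.76 at restriction, and rose by 1.51 ± 0.16. FABP4, the fatty acid binding protein of adipocytes, rose by 0.48 ± 0.10, at the end of the array scale at both diets, while it was 0.03 on the deposited scale and -0.35 with loess, called lower there. S100B, counted among Schwann cell markers and also made by adipocytes, was at 6.76 to 8.45 at ad libitum feeding and at 3.88 to 6.13 at restriction, and rose by 3.06 ± 0.22 (adjusted p = 0.00014). In that list of 12 there were 5 higher, 3 without L3, L4 or L6, and 3 lower, with NEFL, a neurofilament, falling by 1.16 ± 0.12. Of 20 skeletal muscle markers 2 were higher, TNNC1 with 0.80 ± 0.15 at levels below the array median and not called on the deposited scale, and of 13 smooth muscle and pericyte markers 2 were higher and 1 lower. CCL21, of lymphatic vessels, fell by 0.90 ± 0.14 and was the only one of 5 lymphatic markers called.

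Genes of hypoxia and vessel growth rose in 12 of 27, 7 with loess, and fell in 4, 2 without L2, L3 or L5. VEGFA, the main endothelial growth factor, was at 6.71 to 7.78 (median 7.24) at ad libitum feeding and at 5.12 to 6.67 (median 5.65) at restriction, and rose by 1.45 ± 0.24 (adjusted p = 0.0026). EPAS1, the HIF of endothelium and fat, was at 10.47 to 11.24 at ad libitum feeding and at 8.49 to 9.37 at restriction, and rose by 1.79 ± 0.17. ANGPT2, which loosens vessel walls, was at 0.39 to 2.49 (median 1.96) at ad libitum feeding and at -0.88 to 0.19 (median -0.21) at restriction, and rose by 1.94 ± 0.19 (adjusted p = 0.00037). HIF1A rose by 0.92 ± 0.16, but by 0.37 with loess, where it did not pass (adjusted p = 0.11). ARNT, the partner of both HIF proteins, fell by 0.70 ± 0.11 with separate groups and FGF2, a fibroblast growth factor, by 1.26 ± 0.29.

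Of 14 endothelial markers 6 were higher and 1 lower, with a median of 0.47, which was 0.02 on the deposited scale and 0.05 with loess. CDH5, the endothelial cadherin, was at 6.38 to 7.14 (median 6.80) at ad libitum feeding and at 5.52 to 6.16 (median 5.76) at restriction, and rose by 0.97 ± 0.14 (adjusted p = 0.0016). KDR, the main VEGF receptor, rose by 1.32 ± 0.24 and ENG, endoglin, by 1.29 ± 0.16 in its brighter cluster. TIE1, a receptor of the angiopoietin system, fell by 0.55 ± 0.11. PECAM1, ESAM, TEK, VWF and ERG changed by 0.49, 0.61, -0.13, -0.33 and -0.27 and did not pass.

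The change of low gain cows was then set against that of high gain cows, in whom 18.8% of clusters were called higher and 16.5% lower. The cows of the groups are different animals. Across the 24997 clusters the mean changes correlated at 0.834, a description over clusters that share arrays and brightness. Of the 7930 clusters called in low gain cows and the 8835 called in high gain cows, 5374 were called the same way in both and 12 in opposite ways. The signed difference between the changes, low minus high gain, was then tested (limma). At an adjusted p under 0.05 it was above 0 in 5 clusters (0.02% of all) and below 0 in none. Its sign does not say in which group the change was greater in size. At an unadjusted p under 0.05 the difference was above 0 in 1382 clusters (5.53%) and below 0 in 934 (3.74%).

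The 5 clusters carried CYYR1, SORBS2, JAM2, SLC29A1 and CAVIN3. CYYR1, a small membrane protein, rose by 0.85 ± 0.13 in low gain cows and fell by 0.82 in high gain cows, a difference of 1.66 (adjusted p = 0.031). It was higher in 6 of 6 low gain cows and 0 of 6 high gain cows. SORBS2, an adaptor of actin and signalling, changed by 1.26 in low gain and by -0.27 in high gain cows, a difference of 1.54 (adjusted p = 0.035). JAM2, a junction protein of endothelium, was at 5.68 to 6.41 at ad libitum feeding and at 4.41 to 5.38 at restriction in low gain cows, and changed by 0.93 in low gain and -0.60 in high gain cows, a difference of 1.53 (adjusted p = 0.038). SLC29A1, the equilibrative nucleoside transporter, changed by 1.46, within 1.32 to 1.67 in each low gain cow, and by 0.02 in high gain cows, a difference of 1.44 (adjusted p = 0.038). CAVIN3, a caveolar coat protein, changed by 0.74 in low gain and by -0.37 in high gain cows, a difference of 1.11 (adjusted p = 0.038). The count was 0 without the cow as a block, 0 without L1, L2, L4 or L6, 1 without L3, 0 without H1 or H6, 1 without H2 and 3 without H5.

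Next in order by p in the test of the difference, and not past the threshold, stood a second cluster of ENG (difference 1.26), PDGFC, a growth factor of mesenchymal cells (1.01), ANGPT2 (1.71), KLF6, a zinc finger factor (1.78), the olfactory pseudogene OR4F25P (1.11) and the brighter cluster of ENG (1.70). Of the 14 endothelial markers, 6 were higher and 1 lower in low gain cows and none was higher and 3 were lower in high gain cows, with medians of 0.47 in low gain and -0.34 in high gain cows. In 10 of the 14 the difference had an unadjusted p under 0.05, each time with the higher value in low gain cows. Over all clusters the share in that direction was 5.53%. The markers were read on the same arrays and are not independent. Examples are VWF with -0.33 in low gain and -1.75 in high gain cows (adjusted p = 0.27), ERG with -0.27 in low gain and -1.29 in high gain cows (adjusted p = 0.12) and TEK with -0.13 in low gain and -1.43 in high gain cows (adjusted p = 0.34). No endothelial marker passed adjustment. The mean level of the list in low gain cows was 3.47 to 3.97 at ad libitum feeding and 3.02 to 3.63 at restriction, and in high gain cows 3.12 to 3.45 at ad libitum feeding and 3.38 to 3.99 at restriction.

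**Figure D5:**
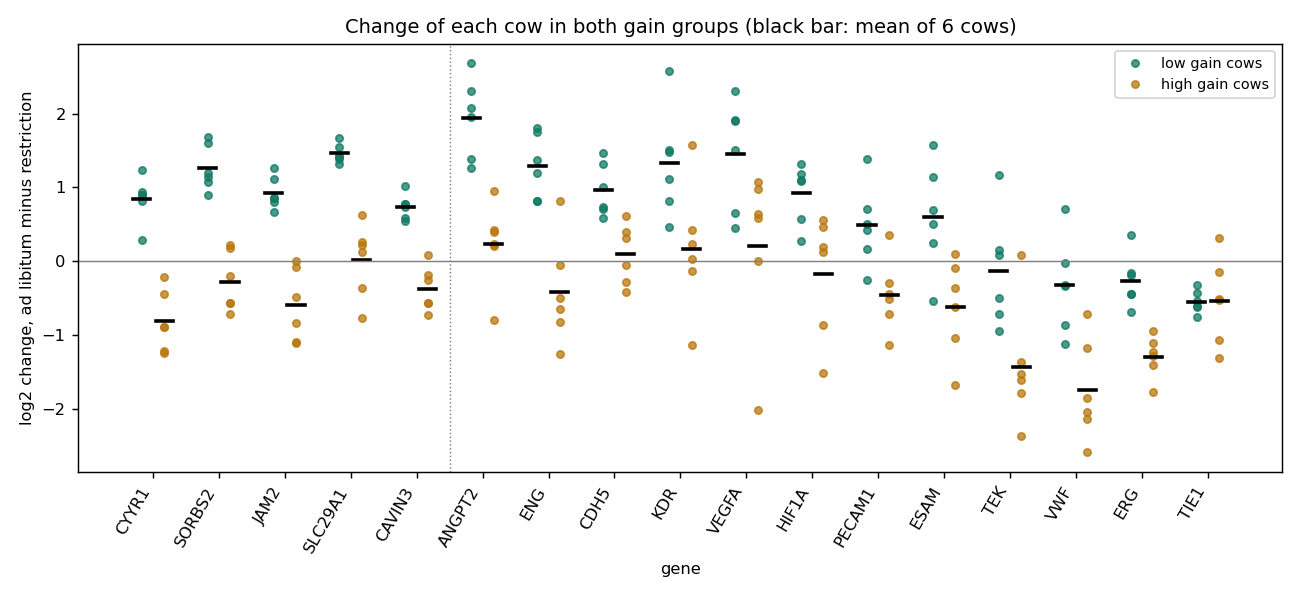
Log2 change, ad libitum minus restriction on centred arrays (y axis), of each low gain cow (green) and each high gain cow (orange) by gene (x axis), with black bars for the mean of 6 cows. The 5 genes left of the dotted line passed the test of the difference. The vessel genes to its right did not, and for VWF the means are -0.33 in low gain and -1.75 in high gain cows.

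Differences in the other direction did not pass either. CKB changed by 3.49 in low gain and 6.10 in high gain cows (adjusted p = 0.29), CLDN10 by 3.60 in low gain and 5.93 in high gain cows (adjusted p = 0.29) and ADAMTS16 by 2.52 in low gain and 5.16 in high gain cows (adjusted p = 0.30). Among the 31 cell cycle genes 9 had an unadjusted p under 0.05 for the difference, each time with the lower value in low gain cows. Over all clusters the share in that direction was 3.74%, and these genes too share arrays. MKI67 changed by -0.38 in low gain and 0.77 in high gain cows, CCNA2, cyclin A2, by 0.28 in low gain and 1.49 in high gain cows and TOP2A, topoisomerase II alpha, by 0.65 in low gain and 1.71 in high gain cows, with adjusted p of 0.29, 0.31 and 0.37 for the differences. NNAT fell by 2.71 in low gain cows and changed by -0.21 in high gain cows (adjusted p = 0.39). THBS1, thrombospondin 1, instead had the higher value in low gain cows and did not pass. It changed by -0.55 ± 0.42 in low gain and by -3.96 in high gain cows (adjusted p = 0.40).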

How the data were processed

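Subcutaneous fat RNA of 12 cows at 2 diets was hybridized to Bovine 1.1ST arrays from 250 ng per the labels. The deposited values are log2 signals per transcript cluster that the authors obtained with Affymetrix Expression Console, with GC correction, signal scaling and RMA, before the Transcriptome Analysis Console was used; versions are not given in the sources used here, nor whether the diets were normalized together. The scale ends near the top for the brightest clusters, so signals there cannot go higher.

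Of 26773 clusters, 1776 below the lowest identifier that names a gene were left out, which leaves 24997 to test. Of these 18790 carry 1 gene symbol in the platform annotation, 385 several and 5822 none, and none was named from a cluster with several. Each array was centred on its median. Low gain cows were fitted with limma 3.58.1 in R 4.3.3, ad libitum minus restriction, with the cow as a block and Benjamini-Hochberg adjustment over all tested clusters. The difference between gain groups was fitted on the change of each cow. The pairs are biopsies of the same animal, and their deviations from the diet means correlated at a median of 0.102 (0.029 to 0.294), against -0.025 between animals. Precision is limited by the number of arrays.

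Genes were named by rule: the 14 largest rises and falls among clusters past the 75th percentile of brightness that moved the same way in 6 of 6 cows and lie outside the lipid and respiration lists, up to 4 members of each of 53 lists by p, the 10 smallest p and the 10 smallest p of the difference. A gene in a list is represented by its brightest cluster. The following were named after their values were seen: ADIPOQ, FABP4, LIPE, PLIN1, PDK4, COL1A1, LUM, POSTN, OGN, FAP, LOX, THBS1, RBP4, CSF1, C7, C4A, BOLA-DQA1, USP18, CCL2, VWF, ERG, PECAM1, ESAM, TEK, HIF1A, FGF2, MKI67, TOP2A, CCNA2, PCNA, DBT, IVD, GSS, UCP1, TFRC, APOE, TLR8, PCK1, INS, ICAM1, ACVR1C, KLF11, VGLL3, GPAT3, MIR145, BOLA-DMA, BOLA-DMB, BOLA-DOA, BOLA-DQA2 and BOLA-DQB. The same holds for COL4A3, COL4A4, COL4A5, LAMA2, LAMA3, LAMA4, LAMA5, LAMB1, LAMB2, LAMC1, PDGFRA, PDGFRB, DPP4, S100A4, FBN1 and MFAP5, for which no values are given. ARNTL, NPAS2, FKBP5 and EIF2AK3 were also named in this way, with no values. Members and lists were chosen with earlier results of these data known. Alternatives were no block, no centring, centring on the 5000 brightest clusters, quantile and cyclic loess normalization, filters on dim and on saturated clusters, another prior, array weights, all clusters, a shared spread, a fold threshold and leaving out each cow.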

Additional observations from a re-analysis of the deposited data

Results flagged for a closer look

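In the test of the difference between gain groups, the signed change of low gain cows minus that of high gain cows was 1.66 for CYYR1 and 1.54 for SORBS2. It was 1.53 for JAM2, 1.44 for SLC29A1 and 1.11 for CAVIN3.

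A cow stood apart from the other 5 of its diet, by Dixon's criterion, in 33 of the 398 groups of 6 levels examined. Chance marks about 1 in 20 groups. L3 was the cow in 13 of them, L2, L4 and L6 in 5 each, L5 in 3 and L1 in 2, and 20 were at ad libitum feeding and 13 at restriction.

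For L3 at ad libitum feeding, high levels were seen for COL3A1 (10.80, the next cow at 9.27), IGFBP6 (6.27, next 4.23), THBS1 (3.43, next 1.30), PCNA (4.46, next 3.65), S100A10 (10.99, next 10.64) and CAVIN3 (5.42, next 4.97), and low levels for BOLA-DQA1 (0.94, next 5.21), CD74 (6.79, next 7.65), PPARG (6.41, next 6.91) and KLF6 (3.68, next 4.03). At restriction L3 was low for BOLA-DQA1 (1.1, next 4.17) and high for CAVIN3 (4.83, next 4.20) and RBP4 (10.43, next 9.71). L3 was thus low for BOLA-DQA1 at both diets.

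L4 was high at ad libitum feeding for CXCL12 (10.12, next 9.02) and FZD1 (0.44, next -0.12), and at restriction for CLDN10 (6.03, next 2.12), ESRRA (-0.32, next -0.86) and RPL10 (10.25, next 9.61). L2 was high at ad libitum feeding for ALDOA (11.81, next 11.47), HSPG2 (6.08, next 5.63) and PRDX2 (6.81, next 5.68), and low at restriction for ATF4 (5.13, next 5.57) and IGFBP7 (9.5, next 10.18). L6 at ad libitum feeding was low for SFXN1 (2.00, next 2.94) and high for UBE2V1 (6.17, next 5.86), and at restriction low for LOX (6.54, next 8.41) and MIR2460 (1.33, next 5.14) and high for ENG (7.12, next 6.44). L5 was low for CCL21 at ad libitum feeding (-2.28, next -1.61) and at restriction low for BMP4 (-0.37, next 0.75) and high for CPT1A (3.60, next 3.0). L1 was high at ad libitum feeding for CD34 (6.55, next 5.55) and RSPO1 (-0.20, next -0.73).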

How the results depend on the processing

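Counts depended on the scale of the arrays and on the fold threshold. With no centring, 1569 rises and 13564 falls were called, and with centring on the brightest clusters 2332 were higher and 8514 lower. Leaving out dim clusters gave 1105 lower clusters, and a fold over 2 left 1142 higher and 262 lower. Without 1 low gain cow there were 3599 to 4302 higher and 2091 to 3093 lower clusters. Without the cow as a replicate block 4643 were higher and 3510 lower, and a difference above 0 between gain groups was called for 0 clusters. That count was 2 on the deposited scale, with quantile or loess normalization and with a trended robust prior, 1 with the brightest centring or array weights, 0 to 4 without a low gain cow and 0 to 6 without a high gain cow. Without the block BOLA-DQA1, CRY2, POSTN and SPP1 lost their calls and LIPE gained one.

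Of 199 gene clusters with values in the text, 165 kept direction and call under every alternative run and 192 kept direction. The exceptions in direction were ADIPOQ (-0.29 with quantile and with loess), FABP4 (-0.35 with loess), PECAM1 (-0.13 with quantile, -0.03 with loess), CCNA2 (-0.17) and OR4F25P (-0.05) on the deposited scale, PLIN1 (-0.22 to 0.22 with a cow left out, above 0 without L3 or L6) and TEK (-0.39 to 0.04 with a cow left out, above 0 without L5). On the deposited scale 19 of the 53 list medians had the other sign, and among medians larger than the spread between cows these were adipokines (-0.19), basement membrane and integrins (-0.01), chemokines (-0.27), interferon and antigen genes (-0.26), cell cycle (-0.26), endoplasmic reticulum chaperones (-0.14), the ATF4 response (-0.13), thermogenesis (-0.07) and smooth muscle (-0.32). With the brightest centring 15 had the other sign, and among the same medians these were adipokines (-0.01), chemokines (-0.08), interferon and antigen genes (-0.08), cell cycle (-0.08) and smooth muscle (-0.14). With loess 43 of the 53 medians moved by less than the spread between cows. The cause of these shifts was not tested. For clusters at the end of the scale at both diets the change carries the centring shift, as in FABP4 with 0.48 centred and 0.03 on the deposited scale.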

Other observations

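Some genes outside the lists also moved. TFRC, the transferrin receptor, was at 4.47 to 5.75 at ad libitum feeding and at 2.17 to 3.48 at restriction in low gain cows, a rise of 2.44 ± 0.21 (SE, adjusted p = 0.00022). TLR8, an endosomal RNA sensor, rose by 2.52 ± 0.31 with separate groups, APOE, an apolipoprotein, by 2.42 ± 0.41, GPAT3, an acyltransferase of triglyceride synthesis, by 2.43 ± 0.53 and PCK1, which feeds glyceroneogenesis in fat, by 2.15 ± 0.43. KLF11, a TGF-beta responsive factor, lay at 1.19 to 2.30 at ad libitum feeding and at 2.76 to 3.98 at restriction, and fell by 1.70 ± 0.21. ACVR1C, an activin receptor of adipocytes, fell by 1.64 ± 0.38, VGLL3, a TEAD cofactor, by 1.56 ± 0.29 and ICAM1, a leukocyte adhesion molecule, by 1.51 ± 0.26. The cluster annotated to INS, insulin, a hormone of the pancreas, fell by 1.28 ± 0.12 with separate groups. MIR145, a microRNA of smooth muscle, rose by 1.31 ± 0.33 in low gain cows and changed by -1.44 in high gain cows (limma test of the difference, adjusted p = 0.11).

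Families of genes were counted after their values were seen. Of 10 subunits of the outer mitochondrial membrane translocase 8 were higher, 5 with loess, and none lower, with a median of 0.69, and of 14 of the inner membrane translocase 8 were higher, 5 with loess, and 1 lower, with a median of 0.51. Of 9 subunits of the cytosolic chaperonin 6 were higher and 1 lower. Of 52 genes whose symbol begins with EIF and a digit 26 were higher, 17 with loess, and 1 lower. Their median of 0.40 was -0.05 on the deposited scale. This group was picked by symbol and holds genes other than translation initiation factors, such as EIF2AK3 of the endoplasmic reticulum chaperone list. Of 543 microRNA clusters 63 were higher and 66 lower.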
